A study of Mus musculus with 6 samples.

Results

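The genes described here encode proteases, protease inhibitors and enzymes that modify the extracellular matrix. They were chosen by name alone: protein-coding genes whose symbol begins with one of a fixed set of family names, among them Adam, Adamts, Mmp, Timp, Serpin, Klk, Prss, Kng and Loxl. The rule found 53 genes among the 2031 genes of the deposited tables, or 2.61% of them. Names do not guarantee activity. The Adamts-like genes Adamtsl1, Adamtsl2 and Adamtsl5 encode proteins without the protease domain, Adam22 encodes a receptor without catalytic activity, and Serpinh1 encodes a collagen chaperone of the serpin fold that inhibits no protease.

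Proteases of the matrix act outside the cell or at its surface, where they trim procollagens, cleave proteoglycans such as versican and degrade collagens and basement membrane. Tissue inhibitors of metalloproteinases and serpins hold them in check, while lysyl oxidases cross-link collagen and elastin and hyaluronan synthases lay down the loose matrix through which cells migrate. In the embryonic heart, hyaluronan and versican fill the cardiac jelly and the valve cushions, and ADAMTS proteases clear versican as the tissue matures.

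The study compared RNA of differentiated cells grown from the mouse embryonic stem cell line J1 (strain 129S4/SvJae) in a pair of culture conditions. NC denotes cells kept in a conventional incubator and MF cells kept in a magnetic field incubator, where the field was static, with 3 libraries each, called NC1 to NC3 and MF1 to MF3 after their replicate numbers. All cells carried the J1 genotype and were steered towards cardiomyocytes as embryoid bodies, which formed in hanging drops after 3 days, and the series text calls the replicates biological triplicates. No source used here gives the field strength, the length of exposure or the day of harvest. All 6 libraries came from a single cell line, and whether the replicates were separate cultures is not stated beyond the word biological, so the p-values measure the spread between these libraries only.

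The libraries held between 14929232 and 19176383 counted reads, totals recovered from the deposited values, and the deposited genes took 5.68% to 10.4% of them. At 3 counts, the floor for a transcript of 1 kb lay between 0.156 and 0.201 FPKM (fragments per kilobase of transcript, scaled to the library total). Per the authors' deposited table, every listed gene had passed a test of MF against NC, with adjusted p-values up to 0.0499 and log2 fold changes of 1.001 or more in size, so the tables hold only genes already selected for this contrast. Tests on them describe selected genes and are no independent evidence, and genes of the same families outside the tables were not analysed here. MF2 stood apart from the other MF libraries. Over the deposited genes its counts differed from those of NC3 and NC1 with a chi-square per degree of freedom of 68.8 and 76.0, against 176 from MF3 and 255 from MF1. From NC2, however, MF2 differed by 227, more than from MF3. NC2 also stood apart from NC1 and NC3, at 107 and 127. The closest pairs were NC1 with NC3, at 22.0, and MF1 with MF3, at 31.6. Counts of calls are therefore given with and without MF2.

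Deposited cell-type markers differed between the groups, as every deposited gene did by the authors' selection. Of all 2031 deposited genes 63.2% were higher in MF, and listed markers outside the tables were not analysed here. Of 11 cardiomyocyte markers 9 were deposited and all 9 were higher in MF, with summed levels of 21.5 to 40.8 FPKM in NC and 78.6 to 392 FPKM in MF. Of 12 fibroblast markers 11 were deposited, all higher in MF, with sums of 91.5 to 251 FPKM in NC and 229 to 1171 FPKM in MF, where the lowest MF sum was that of MF2. Lum was at 0 in NC2, the single zero among these markers. Endothelial markers gave 6 of 8, of which 5 rose and 1 fell, with sums of 13.5 to 44.5 FPKM in NC and 25.3 to 47.5 FPKM in MF. By contrast, 4 of 12 markers of naive pluripotency and 6 of 9 germ cell markers were deposited and every one fell, the germ cell sums being 25.1 to 106 FPKM in NC and 4.004 to 12.3 FPKM in MF. No neural marker of 9, 1 blood marker of 12 and 3 trophoblast markers of 12 were in the tables. The part of these lists in the results on the members was not tested. In these bulk samples, fewer cells of a type and less RNA per cell cannot be told apart.

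Most members were higher in the magnetic-field cells, and those that were lower all had kallikrein, Prss or Tmprss names. Of the 53 members, 47 had a higher mean in MF and 6 a lower mean, so 88.7% were higher, against 63.2% of all 2031 deposited genes. The 47 included every member of the ADAM, ADAMTS, matrix metalloproteinase, TIMP, serpin, kininogen and lysyl oxidase families in the tables. All 6 lower members had symbols of the kallikrein, Prss and Tmprss families, which are named for serine proteases. Their activity was not examined here. No gene of the Kunitz, Kazal or WAP inhibitor families (Spint, Spink, Wfdc) was in the tables.

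Genes that averaged 0.5 FPKM or more across all 6 libraries were tested with edgeR's quasi-likelihood test and Benjamini-Hochberg adjustment over the 1651 named genes that passed, of which 97.5% had an adjusted p under 0.05. Among the members 45 were tested. Of these 38 rose, where 62.1% of all tested genes rose, and 5 fell, where 35.4% of all tested genes fell. Since nearly every tested gene passed, the count of 43 says nothing particular about the members, and the same holds for the counts by family below. Serpinh1 and Loxl3 did not pass. The other 8 members lay below the expression filter: Adamts3, Adamts17, Adamts18, Adamtsl1, Adamtsl2, Mmp16, Bace2 and Tmprss5, of which 7 had higher means in MF. The median log2 fold change was 1.37 over the tested members and 1.22 over all tested genes. Those members that were higher had a median of 1.57, against 1.62 for all tested genes that were higher.

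**Figure D1:**
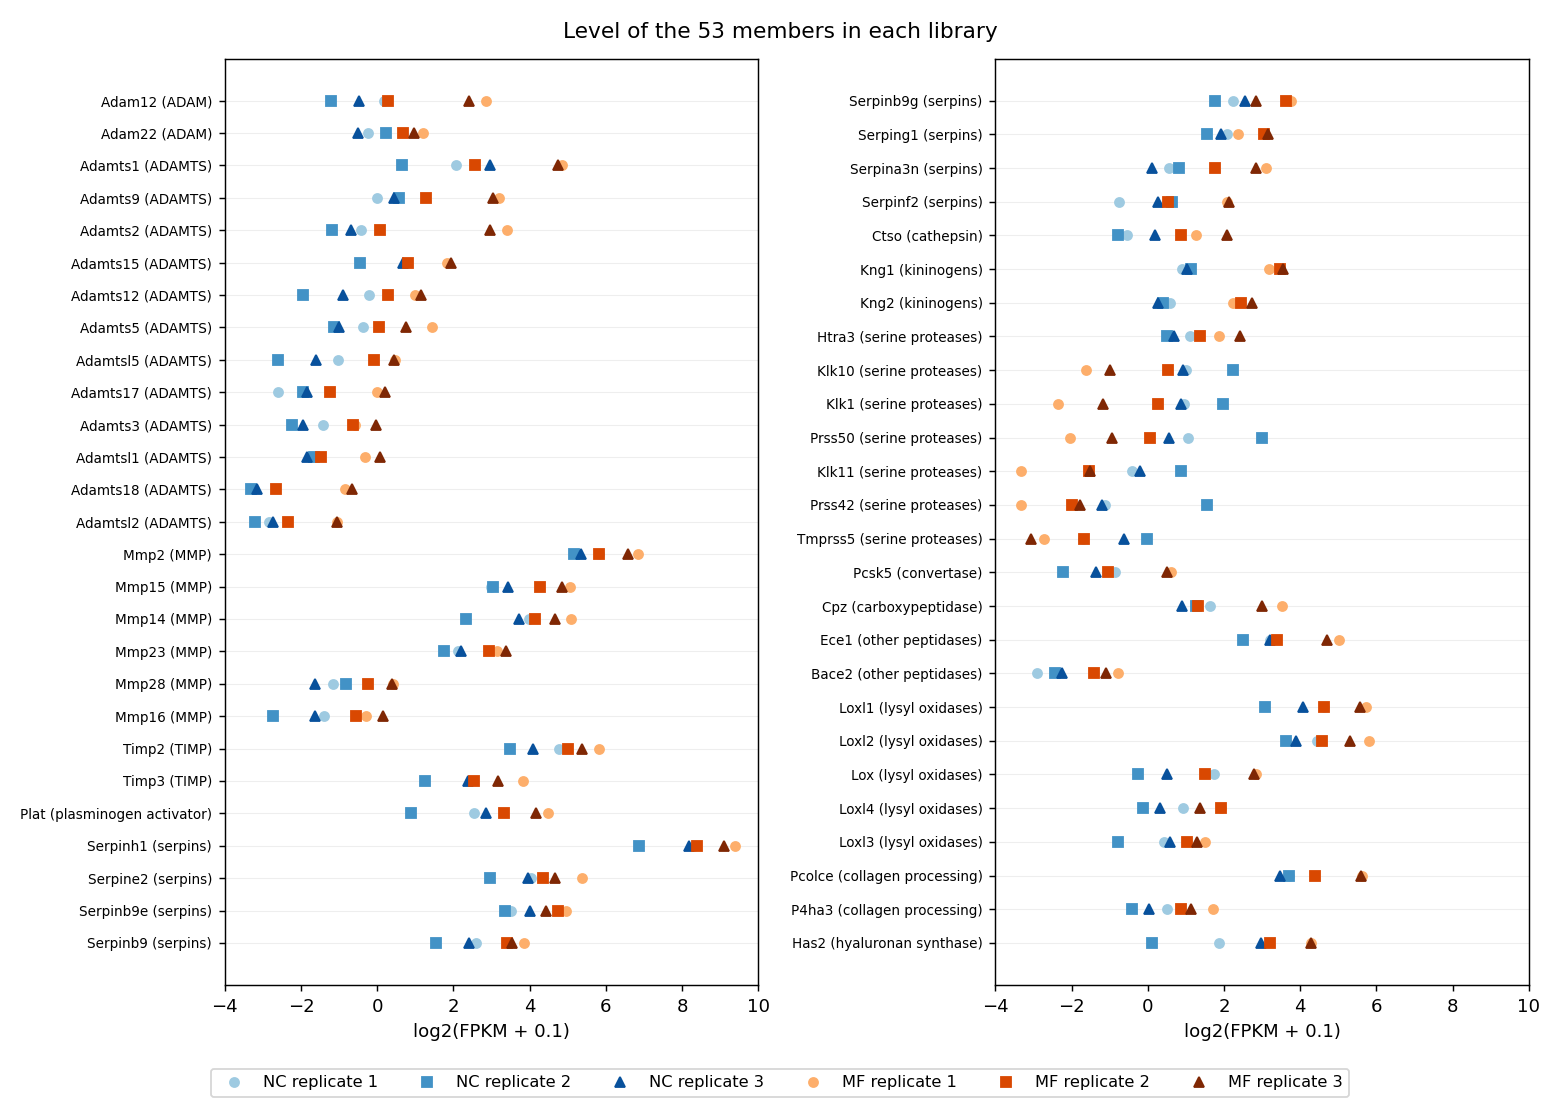
Level of each of the 53 members in each of the 6 libraries, as log2(FPKM + 0.1) on the horizontal axis, with NC libraries in blue and MF libraries in orange and the replicate number given by the symbol. Serpinh1 was the most abundant member, MF2 (orange squares) lay between the NC libraries and the other MF libraries for most members, and the kallikreins and Prss genes ran opposite to the rest.

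The ADAMTS family, secreted metalloproteinases anchored in the matrix by thrombospondin repeats, had the most members and the largest fold. All 12 deposited members had higher means in MF, and the 7 that were tested all rose, where 62.1% of all tested genes rose. The 7 had a median log2 fold change of 2.22, against 1.62 for all tested genes that were higher. Adamts2, which removes the amino-terminal propeptide of fibrillar procollagens (chr11:50602084-50807573, mm10), stood at 0.643, 0.339 and 0.524 FPKM in NC1, NC2 and NC3 and 10.5, 0.94992 and 7.68 FPKM in MF1, MF2 and MF3. MF1 and MF3 were far above every NC library, and MF2 exceeded the highest of them by a small margin. Means were 0.502 ± 0.153 FPKM in NC and 6.37 ± 4.90 FPKM in MF (SD, n = 3 each), a 12.7-fold rise (log2 3.66 ± 0.77 SE, edgeR adjusted p = 0.0125), the largest fold among the tested members.

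Adamts9, which cleaves versican and aggrecan (chr6:92772699-92943492), was measured at 0.900, 1.39 and 1.25 FPKM in NC1, NC2 and NC3 and 9.03, 2.34 and 8.15 FPKM in MF1, MF2 and MF3. The groups did not overlap, and MF2 was again the MF library nearest to NC. The rise was 5.52-fold (means 1.18 ± 0.250 FPKM in NC and 6.51 ± 3.64 FPKM in MF, log2 2.47 ± 0.54 SE, edgeR adjusted p = 0.0131). Adamtsl5, which has no protease domain (chr10:80339110-80348412), was at 0.392, 0.0657 and 0.227 FPKM in NC1, NC2 and NC3 and 1.29, 0.845 and 1.26 FPKM in MF1, MF2 and MF3. Every MF library was above every NC library, and NC2 was the lowest of all. It rose 4.94-fold (log2 2.30 ± 0.70 SE, edgeR adjusted p = 0.0242), and 7.70-fold without NC1.

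Adamts1, another protease of versican and aggrecan (chr16:85793827-85803113), was the most abundant family member, at 4.07, 1.48 and 7.64 FPKM in NC1, NC2 and NC3 and 28.8, 5.85 and 26.9 FPKM in MF1, MF2 and MF3. Here the groups overlapped, because MF2 lay below NC3. Means were 4.40 ± 3.10 FPKM in NC and 20.5 ± 12.7 FPKM in MF, and the rise was 4.67-fold (log2 2.22 ± 0.71 SE, edgeR adjusted p = 0.0256) or 7.39-fold without NC3. Its neighbour Adamts5, an aggrecanase, rose 3.57-fold at lower levels, 0.669, 0.357 and 0.403 FPKM in the NC libraries and 2.59, 0.927 and 1.59 FPKM in the MF libraries. The remaining tested genes of the family, Adamts12 and Adamts15, rose 3.78-fold and 2.35-fold, Adamts12 by 5.72-fold when NC1 was left out. The stretch before the Adamts1 start is shown because it holds TATAAA, the letters of a TATA box, which only 1 other member promoter held. It covers chr16:85803114-85803363, minus strand, from RefSeq on GRCm38.p6, with the TATAAA and GGGCGG motifs in capitals:
Adamts1: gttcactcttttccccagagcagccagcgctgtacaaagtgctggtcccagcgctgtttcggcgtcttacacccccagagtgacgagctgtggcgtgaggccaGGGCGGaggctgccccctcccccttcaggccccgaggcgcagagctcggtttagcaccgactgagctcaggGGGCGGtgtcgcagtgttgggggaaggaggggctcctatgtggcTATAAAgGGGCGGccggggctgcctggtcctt

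Below the filter, Adamts18 had the widest contrast of all members, with 1, 0 and 2 counts in NC1, NC2 and NC3 and 90, 10 and 88 counts in MF1, MF2 and MF3. The depth-scaled ratio of the summed counts was 56.0 (exact 95% interval 18.9 to 274, which covers counting error only). Adamtsl2, which binds fibrillin-rich matrix, was at 0.0400, 0.00777 and 0.0503 FPKM in the NC libraries and 0.385, 0.0968 and 0.384 FPKM in the MF libraries. Adamts17 ranged from 0.0658 to 0.181 FPKM in NC and from 0.322 to 1.06 FPKM in MF. Adamts3, a procollagen amino-proteinase like Adamts2, ranged from 0.114 to 0.271 FPKM in NC and from 0.548 to 0.871 FPKM in MF, and Adamtsl1 from 0.178 to 0.219 and from 0.261 to 0.948 FPKM. In these 5 genes the groups did not overlap, as in 93.0% of all named deposited genes. They were not tested.

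Both deposited ADAM genes rose. Adam12, a membrane-anchored metalloproteinase found in mesenchyme and developing muscle (chr7:133883199-134232146), was at 1.03, 0.335 and 0.621 FPKM in NC1, NC2 and NC3 and 7.12, 1.13 and 5.24 FPKM in MF1, MF2 and MF3. MF1 and MF3 were high, whereas MF2 was barely above NC1. It rose 6.80-fold (means 0.661 ± 0.348 FPKM in NC and 4.49 ± 3.06 FPKM in MF, log2 2.77 ± 0.69 SE, edgeR adjusted p = 0.0175). Adam22 (chr5:8072352-8368160) was at 0.743, 1.06 and 0.612 FPKM in the NC libraries and 2.20, 1.49 and 1.84 FPKM in the MF libraries, without overlap, and rose 2.29-fold (log2 1.19 ± 0.41 SE, edgeR adjusted p = 0.0290).

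Matrix metalloproteinases, zinc enzymes that degrade collagens, gelatins and basement membrane, rose by a smaller median factor than the ADAMTS genes. All 5 tested members rose, where 62.1% of all tested genes rose. The median log2 fold change of the 5 was 1.19, below the 1.62 of all tested genes that were higher. Mmp15, a membrane-type enzyme (chr8:95352268-95375080), was at 7.79, 8.14 and 10.7 FPKM in NC1, NC2 and NC3 and 33.5, 19.0 and 28.9 FPKM in MF1, MF2 and MF3. The NC libraries lay close together, and MF2 was well above them. Its rise was 3.05-fold (means 8.88 ± 1.60 FPKM in NC and 27.1 ± 7.37 FPKM in MF, log2 1.61 ± 0.39 SE, edgeR adjusted p = 0.0164).

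Mmp2, a gelatinase and the most abundant metalloproteinase here (chr8:92827291-92853420), was at 56.5, 36.0 and 40.6 FPKM in NC1, NC2 and NC3 and 115, 56.1 and 96.4 FPKM in MF1, MF2 and MF3. MF2 lay inside the NC range, just under NC1. The rise was 2.01-fold (log2 1.01 ± 0.42 SE, edgeR adjusted p = 0.0412), and its log2 fold change was 0.28 with TMM factors and turned to -0.10 with median-of-ratios factors, both computed from the deposited genes alone. Mmp14, the membrane enzyme that activates pro-Mmp2 (chr14:54431612-54445364), was at 15.7, 4.93 and 13.0 FPKM in NC1, NC2 and NC3 and 33.9, 17.6 and 25.3 FPKM in MF1, MF2 and MF3. The groups did not overlap and NC2 was the lowest library. It rose 2.28-fold (means 11.2 ± 5.61 FPKM in NC and 25.6 ± 8.14 FPKM in MF, log2 1.19 ± 0.49 SE, edgeR adjusted p = 0.0404). Mmp28 (chr11:83440768-83463071) was at 0.346, 0.465 and 0.225 FPKM in the NC libraries and 1.24, 0.753 and 1.21 FPKM in the MF libraries and rose 3.07-fold (edgeR adjusted p = 0.0309), and Mmp23 rose 2.21-fold. Mmp16, a membrane-type enzyme below the filter, ranged from 0.0501 to 0.280 FPKM in NC and from 0.584 to 1.01 FPKM in MF.

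Both deposited tissue inhibitors of these enzymes rose as well. Timp2, which also bridges Mmp14 and pro-Mmp2 at the cell surface (chr11:118301069-118355740), was at 26.985, 11.1 and 16.8 FPKM in NC1, NC2 and NC3 and 56.4, 32.1 and 41.6 FPKM in MF1, MF2 and MF3. No MF library reached down to the NC range. The rise was 2.37-fold (means 18.3 ± 8.05 FPKM in NC and 43.4 ± 12.3 FPKM in MF, log2 1.25 ± 0.44 SE, edgeR adjusted p = 0.0301), so the log2 fold changes of Mmp14, Mmp2 and Timp2 lay between 1.01 and 1.25 and differed by less than their standard errors. Timp3, which binds to the matrix and also inhibits ADAM and ADAMTS enzymes (chr10:86300372-86349506), was at 5.33, 2.29 and 5.09 FPKM in the NC libraries and 14.0, 5.74 and 8.89 FPKM in the MF libraries. MF2 exceeded NC1 by little. Timp3 rose 2.25-fold (log2 1.17 ± 0.48 SE, edgeR adjusted p = 0.0392). Timp2 and Timp3 each overlap another coding gene, Cep295nl and Syn3, and no source used here says whether the counting used strand, so reads of the overlaps cannot be assigned. Adamts9, Adamtsl1, Mmp28 and Pcolce also overlap a coding gene.

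Plat, the tissue plasminogen activator (chr8:22757727-22782844), was at 5.76, 1.76 and 7.16 FPKM in NC1, NC2 and NC3 and 22.1, 9.93 and 17.8 FPKM in MF1, MF2 and MF3. NC2 was the lowest library and every MF library exceeded every NC library. It rose 3.40-fold (means 4.89 ± 2.80 FPKM in NC and 16.6 ± 6.19 FPKM in MF, log2 1.77 ± 0.55 SE, edgeR adjusted p = 0.0248). Plat is also a marker of parietal endoderm, a list of which 3 of 11 genes were deposited, all of them risen. The summed level of the list, which includes Plat itself, was 7.51 to 15.3 FPKM in NC and 22.6 to 60.9 FPKM in MF. In Gata6, another of the 3, the groups overlapped, with MF2 at 2.19 FPKM and NC2 at 2.93 FPKM. The part of the list in the result was not tested.

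All 8 deposited serpins, a family named for its serine protease inhibitors, had higher means in MF. Of these 7 rose, where 62.1% of all tested genes rose. The median log2 fold change over the 8 was 1.20, below the 1.62 of all tested genes that were higher. Serpina3n, a secreted inhibitor (chr12:104406729-104414329), was at 1.36, 1.65 and 0.974 FPKM in NC1, NC2 and NC3 and 8.46, 3.29 and 6.9953 FPKM in MF1, MF2 and MF3. MF2 lay between the NC libraries and MF3. The rise was 4.69-fold (means 1.33 ± 0.341 FPKM in NC and 6.25 ± 2.67 FPKM in MF, log2 2.23 ± 0.54 SE, edgeR adjusted p = 0.0164). Serpine2, an inhibitor of thrombin and plasminogen activators (chr1:79794197-79861180), was at 16.4, 7.69 and 15.5 FPKM in the NC libraries and 41.7, 20.4 and 25.2 FPKM in the MF libraries, without overlap. It rose 2.21-fold (log2 1.14 ± 0.45 SE, edgeR adjusted p = 0.0361).

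Serpinf2, which encodes the main inhibitor of plasmin (chr11:75431732-75439591), was at 0.495, 1.44 and 1.10 FPKM in the NC libraries and 4.13, 1.36 and 4.31 FPKM in the MF libraries. MF2 lay inside the NC range, under NC2. The rise was 3.22-fold (means 1.01 ± 0.479 FPKM in NC and 3.27 ± 1.65 FPKM in MF, log2 1.69 ± 0.65 SE, edgeR adjusted p = 0.0332). Serping1, the inhibitor of complement C1, rose 2.07-fold, with MF1 as its lowest MF library at 5.09 FPKM against an NC range of 2.86 to 4.15 FPKM.

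Serpinh1, the collagen chaperone (chr7:99345376-99353239), had the highest level of all members, at 318, 117 and 291 FPKM in NC1, NC2 and NC3 and 675, 334 and 544 FPKM in MF1, MF2 and MF3. The groups did not overlap, with MF2 close above NC1 and NC2 far below the rest. Means were 242 ± 109 FPKM in NC and 518 ± 172 FPKM in MF, a ratio of 2.14 (log2 1.10 ± 0.51 SE) that did not pass edgeR's quasi-likelihood test (adjusted p = 0.0565). With the replicate number as a block it passed, at an edgeR adjusted p of 0.00644.

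A serpin cluster on chromosome 13 contributed 3 members. Serpinb9, an intracellular inhibitor of granzyme B (chr13:33003250-33017957), was at 5.90, 2.82 and 5.25 FPKM in NC1, NC2 and NC3 and 14.3, 10.4 and 11.6 FPKM in MF1, MF2 and MF3, without overlap. It rose 2.59-fold (means 4.66 ± 1.62 FPKM in NC and 12.1 ± 1.98 FPKM in MF, log2 1.38 ± 0.42 SE, edgeR adjusted p = 0.0240). Its paralogs Serpinb9e (chr13:33249612-33260850) and Serpinb9g (chr13:33484790-33496004) rose 2.10-fold and 2.39-fold, with edgeR adjusted p-values of 0.0302 and 0.0307. In both paralogs MF3 was the lowest MF library, at 21.4 and 7.01 FPKM, whereas for Serpinb9 it was MF2. Of the 50-base windows of their transcripts, 28.4% in Serpinb9e and 54.8% in Serpinb9g also occur in other annotated genes, so the authors' counting could have split or dropped their reads and both values are uncertain.

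The promoters of these paralogs are printed because they are nearly the same sequence. In an alignment of the 250 bases before each start, 236 of 246 aligned bases, or 95.9%, were identical. Both are plus-strand sequences from RefSeq on GRCm38.p6, at chr13:33249358-33249607 for Serpinb9e and chr13:33484540-33484789 for Serpinb9g, with capitals at the bases that differ and at the unaligned ends:
Serpinb9e: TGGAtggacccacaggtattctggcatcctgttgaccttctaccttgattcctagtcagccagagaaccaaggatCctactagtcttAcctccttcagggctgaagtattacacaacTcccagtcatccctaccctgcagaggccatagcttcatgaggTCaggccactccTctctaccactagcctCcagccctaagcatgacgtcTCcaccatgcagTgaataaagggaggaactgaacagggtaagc
Serpinb9g: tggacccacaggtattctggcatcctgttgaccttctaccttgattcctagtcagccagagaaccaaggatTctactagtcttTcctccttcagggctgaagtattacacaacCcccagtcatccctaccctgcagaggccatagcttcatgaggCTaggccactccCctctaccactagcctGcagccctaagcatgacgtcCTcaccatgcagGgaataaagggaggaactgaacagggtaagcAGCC

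Both kininogens rose, in every MF library alike. They are secreted precursors of the vasoactive peptide bradykinin and also inhibit cysteine proteases. Kng1 (chr16:23057865-23082078) was at 1.75, 2.08 and 1.94 FPKM in NC1, NC2 and NC3 and 8.94, 10.9 and 11.6 FPKM in MF1, MF2 and MF3. The NC libraries differed little from each other, every MF library was several times higher, and MF2 was not the lowest of them. Means were 1.92 ± 0.167 FPKM in NC and 10.5 ± 1.37 FPKM in MF, and the rise of 5.44-fold (log2 2.44 ± 0.39 SE) had the smallest edgeR adjusted p among the members, 0.0111.

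Kng2 (chr16:22985854-23029482) was at 1.40, 1.23 and 1.10 FPKM in NC1, NC2 and NC3 and 4.65, 5.33 and 6.54 FPKM in MF1, MF2 and MF3. MF1 was the lowest and MF3 the highest MF library, as in Kng1, and the groups did not overlap. Kng2 rose 4.42-fold (means 1.24 ± 0.150 FPKM in NC and 5.51 ± 0.955 FPKM in MF, log2 2.14 ± 0.45 SE, edgeR adjusted p = 0.0123). The genes lie 28.4 kb apart with no coding gene between them. They share 557 windows of 50 bases, 17.2% of those of Kng1 and 19.4% of those of Kng2, so a part of their reads may not have been told apart. Kininogens are liver products in the adult, and of 12 markers of visceral or definitive endoderm only Foxa1 was deposited, at 1.11 to 3.24 FPKM in NC and 3.43 to 8.25 FPKM in MF. Its part in the result was not tested. Ctso, a lysosomal cysteine protease of the cathepsin family (chr3:81932601-81956725), was at 0.586, 0.485 and 1.03 FPKM in the NC libraries and 2.32, 1.73 and 4.14 FPKM in the MF libraries, with MF3 the highest library and no overlap. It rose 3.89-fold (means 0.701 ± 0.292 FPKM in NC and 2.73 ± 1.25 FPKM in MF, log2 1.96 ± 0.54 SE, edgeR adjusted p = 0.0216).

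Lysyl oxidases oxidise lysines of collagen and elastin so that the fibres can cross-link. All 5 genes of the family were deposited with higher means in MF. Of these 4 rose, where 62.1% of all tested genes rose. The median log2 fold change over the 5 was 1.32, below the 1.62 of all tested genes that were higher. Loxl1, linked to elastic fibres (chr9:58287738-58313186), was at 24.5, 8.38 and 16.8 FPKM in NC1, NC2 and NC3 and 52.8, 24.4 and 47.0 FPKM in MF1, MF2 and MF3. MF2 lay just under NC1, so the groups overlapped. The rise was 2.50-fold (means 16.6 ± 8.06 FPKM in NC and 41.4 ± 15.015 FPKM in MF, log2 1.32 ± 0.49 SE, edgeR adjusted p = 0.0318). Loxl2 (chr14:69609068-69695834) was at 21.6, 12.3 and 14.8 FPKM in the NC libraries and 56.1, 23.8 and 39.5 FPKM in the MF libraries, without overlap, and rose 2.45-fold (log2 1.29 ± 0.44 SE, edgeR adjusted p = 0.0281). In Loxl2 45% of windows also occur in other annotated genes, most of them in Gm21451, so its counts are uncertain.

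Lox, the founding member, was at 3.26, 0.740 and 1.33 FPKM in NC1, NC2 and NC3 and 7.11, 2.75 and 6.79 FPKM in MF1, MF2 and MF3. MF2 lay below NC1. It rose 3.12-fold (means 1.78 ± 1.32 FPKM in NC and 5.55 ± 2.43 FPKM in MF, edgeR adjusted p = 0.0324), or 5.35-fold without NC1. Loxl4 (chr19:42593982-42612813) was at 1.80, 0.825 and 1.16 FPKM in the NC libraries and 3.68, 3.66 and 2.49 FPKM in the MF libraries, where MF3 and not MF2 was the lowest MF library, and rose 2.59-fold (log2 1.37 ± 0.48 SE, edgeR adjusted p = 0.0295). Loxl3, which overlaps the coding gene Htra2, was at 1.25, 0.485 and 1.40 FPKM in the NC libraries and 2.72, 1.94 and 2.35 FPKM in the MF libraries. Its groups did not overlap, but the ratio of 2.24 did not pass edgeR's quasi-likelihood test (adjusted p = 0.0525), and it passed with the replicate block (adjusted p = 0.0194).

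Pcolce and P4ha3, which act on procollagen as Adamts2 does, both rose. Pcolce, which enhances the proteinase that removes the carboxyl propeptide (chr5:137605103-137613784), was at 13.0, 12.9 and 11.003 FPKM in NC1, NC2 and NC3 and 49.5, 20.9 and 47.8 FPKM in MF1, MF2 and MF3. The NC libraries were nearly equal, MF1 and MF3 were nearly equal, and MF2 lay between. The rise was 3.20-fold (means 12.3 ± 1.14 FPKM in NC and 39.4 ± 16.043 FPKM in MF, log2 1.68 ± 0.43 SE, edgeR adjusted p = 0.0189). P4ha3, a subunit of the prolyl hydroxylase that stabilises the collagen helix (chr7:100285520-100319699), was at 1.32, 0.653 and 0.919 FPKM in the NC libraries and 3.18, 1.75 and 2.10 FPKM in the MF libraries, without overlap. It rose 2.42-fold (log2 1.28 ± 0.53 SE, edgeR adjusted p = 0.0418).

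Has2, the hyaluronan synthase of the developing heart (chr15:56665627-56694539), was at 3.54, 0.982 and 7.71 FPKM in NC1, NC2 and NC3 and 19.4, 9.07 and 19.2 FPKM in MF1, MF2 and MF3. NC2 was lowest, NC3 was highest within NC, and MF2 was just above NC3. Means were 4.08 ± 3.40 FPKM in NC and 15.9 ± 5.91 FPKM in MF, and the rise was 3.90-fold (log2 1.96 ± 0.67 SE, edgeR adjusted p = 0.0280), or 7.03-fold without NC3. Cemip, an outside gene whose product takes part in hyaluronan breakdown, rose 4.71-fold.

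The peptidases that process hormones and growth factors also rose. Pcsk5, a proprotein convertase needed in heart and axial development (chr19:17432319-17837632), was at 0.447, 0.116 and 0.287 FPKM in the NC libraries and 1.42, 0.387 and 1.31 FPKM in the MF libraries. MF2 lay inside the NC range, and the rise was 3.66-fold (log2 1.87 ± 0.66 SE, edgeR adjusted p = 0.0295). Ece1, which converts endothelin to its active form (chr4:137862237-137965229), was at 9.15, 5.59 and 9.10 FPKM in the NC libraries and 32.3, 10.3 and 25.9 FPKM in the MF libraries. MF1 and MF3 were well above NC, MF2 only slightly. Ece1 rose 2.87-fold (means 7.94 ± 2.04 FPKM in NC and 22.8 ± 11.3 FPKM in MF, log2 1.52 ± 0.48 SE, edgeR adjusted p = 0.0253).

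Cpz, a carboxypeptidase that binds Wnt proteins (chr5:35502218-35525698), was at 2.99, 2.29 and 1.76 FPKM in NC1, NC2 and NC3 and 11.4, 2.41 and 7.91 FPKM in MF1, MF2 and MF3. MF2 lay inside the NC range, and the 3.08-fold rise (means 2.35 ± 0.615 FPKM in NC and 7.23 ± 4.52 FPKM in MF, log2 1.62 ± 0.59 SE, edgeR adjusted p = 0.0312) came from MF1 and MF3. Bace2, a relative of beta-secretase below the filter, ranged from 0.0324 to 0.110 FPKM in NC and from 0.279 to 0.483 FPKM in MF.

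**Figure D2:**
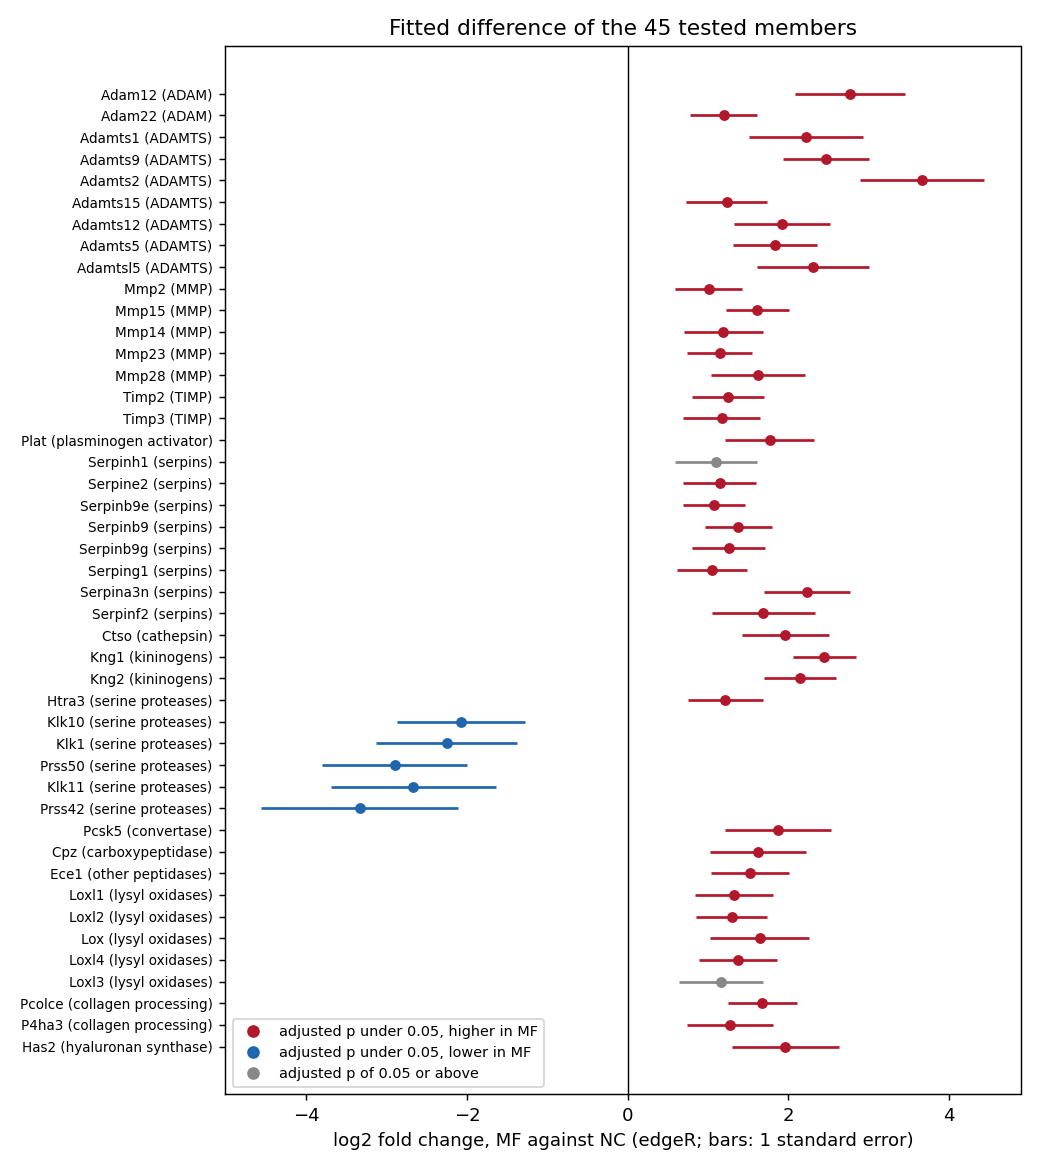
Fitted log2 fold change of MF against NC for the 45 tested members on the horizontal axis, with bars of 1 standard error, coloured by direction and by whether the edgeR adjusted p was under 0.05. The 38 members in red rose by 1.01 to 3.66, the 5 kallikrein and Prss genes in blue fell, and Serpinh1 and Loxl3 in grey did not pass.

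The kallikrein, Prss, Tmprss and Htra genes, called serine proteases here by name and considered apart from Plat, mostly ran the other way. Of 7 deposited members 1 rose and 5 fell, where 35.4% of all tested genes fell, and Tmprss5 was below the filter. The median log2 fold change over the 6 that were tested was -2.46. The gene that rose was Htra3, a secreted protease with a PDZ domain (chr5:35652023-35679782). It was at 2.04, 1.31 and 1.51 FPKM in the NC libraries and 3.56, 2.51 and 5.25 FPKM in the MF libraries, without overlap, and rose 2.32-fold (log2 1.22 ± 0.46 SE, edgeR adjusted p = 0.0331).

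Prss50, a protease of the testis (chr9:110857967-110864629), was at 1.97, 7.89 and 1.38 FPKM in NC1, NC2 and NC3 and 0.143, 0.940 and 0.422 FPKM in MF1, MF2 and MF3. NC2 was several times above NC1 and NC3, MF2 was the highest MF library, and the groups did not overlap. Means were 3.75 ± 3.60 FPKM in NC and 0.502 ± 0.404 FPKM in MF, and expression fell 7.44-fold (log2 -2.90 ± 0.90 SE, edgeR adjusted p = 0.0247). The fall was 3.34-fold without NC2 and 13.2-fold without MF2.

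Prss42, its neighbour and also a testis gene (chr9:110798166-110803754), was at 0.363, 2.82 and 0.338 FPKM in NC1, NC2 and NC3 and 0, 0.150 and 0.194 FPKM in MF1, MF2 and MF3. The NC mean rested on NC2, and MF1 had no count, which allows up to 0.0988 FPKM. It fell 10.1-fold (means 1.17 ± 1.43 FPKM in NC and 0.115 ± 0.102 FPKM in MF, log2 -3.34 ± 1.22 SE, edgeR adjusted p = 0.0312). Leaving out NC2 gave 3.04-fold, MF1 6.68-fold and MF3 15.2-fold. The Prss42 promoter is shown because it was the single member promoter that held TGANTCA, the letters of an AP-1 site. It lies at chr9:110797935-110798184, plus strand, from RefSeq on GRCm38.p6, with that motif and GGGCGG in capitals:
Prss42: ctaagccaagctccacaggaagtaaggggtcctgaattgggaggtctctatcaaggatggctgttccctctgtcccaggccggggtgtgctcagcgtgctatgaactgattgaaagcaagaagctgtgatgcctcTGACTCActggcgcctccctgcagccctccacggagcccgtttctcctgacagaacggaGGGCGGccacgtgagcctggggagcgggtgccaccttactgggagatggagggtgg

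The kallikreins, secreted proteases of glands and epithelia, gave 3 members within a stretch of chromosome 7. Klk11 (chr7:43774604-43779263) was at 0.653, 1.73 and 0.776 FPKM in NC1, NC2 and NC3 and 0, 0.243 and 0.251 FPKM in MF1, MF2 and MF3. NC2 was again the highest library and MF1 had no count, which allows up to 0.107 FPKM. It fell 6.35-fold (means 1.05 ± 0.592 FPKM in NC and 0.165 ± 0.143 FPKM in MF, log2 -2.67 ± 1.03 SE, edgeR adjusted p = 0.0338), or 4.20-fold without MF1. Klk10 (chr7:43781035-43785410) was at 1.91, 4.61 and 1.81 FPKM in the NC libraries and 0.228, 1.34 and 0.403 FPKM in the MF libraries. Klk1 (chr7:44225360-44229618) was at 1.84, 3.80 and 1.74 FPKM in the NC libraries and 0.0968, 1.11 and 0.342 FPKM in the MF libraries. In both, NC2 was the highest and MF1 the lowest library. They fell 4.21-fold and 4.76-fold with edgeR adjusted p-values of 0.0336 and 0.0341, and 8.74-fold and 11.1-fold without MF2. In Klk1 24.0% of windows also occur in other genes, chiefly Klk1b5, so its counts are uncertain.

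Tmprss5, a membrane-bound serine protease below the filter, was at 0.209, 0.893 and 0.548 FPKM in the NC libraries and 0.0512, 0.214 and 0.0201 FPKM in the MF libraries. MF2 lay inside the NC range, just above NC1. The 6 lower members all had NC2 as their highest NC library, as did 82.5% of all 709 named genes that were lower. The germ cell markers were also highest in NC2, at 106 FPKM in sum against 37.5 in NC1 and 25.1 in NC3, and the deposited markers of naive pluripotency summed to 750 FPKM in NC2 against 324 in NC1 and 274 in NC3. The part of either list in the lower levels of these 6 members was not tested.

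**Figure D3:**
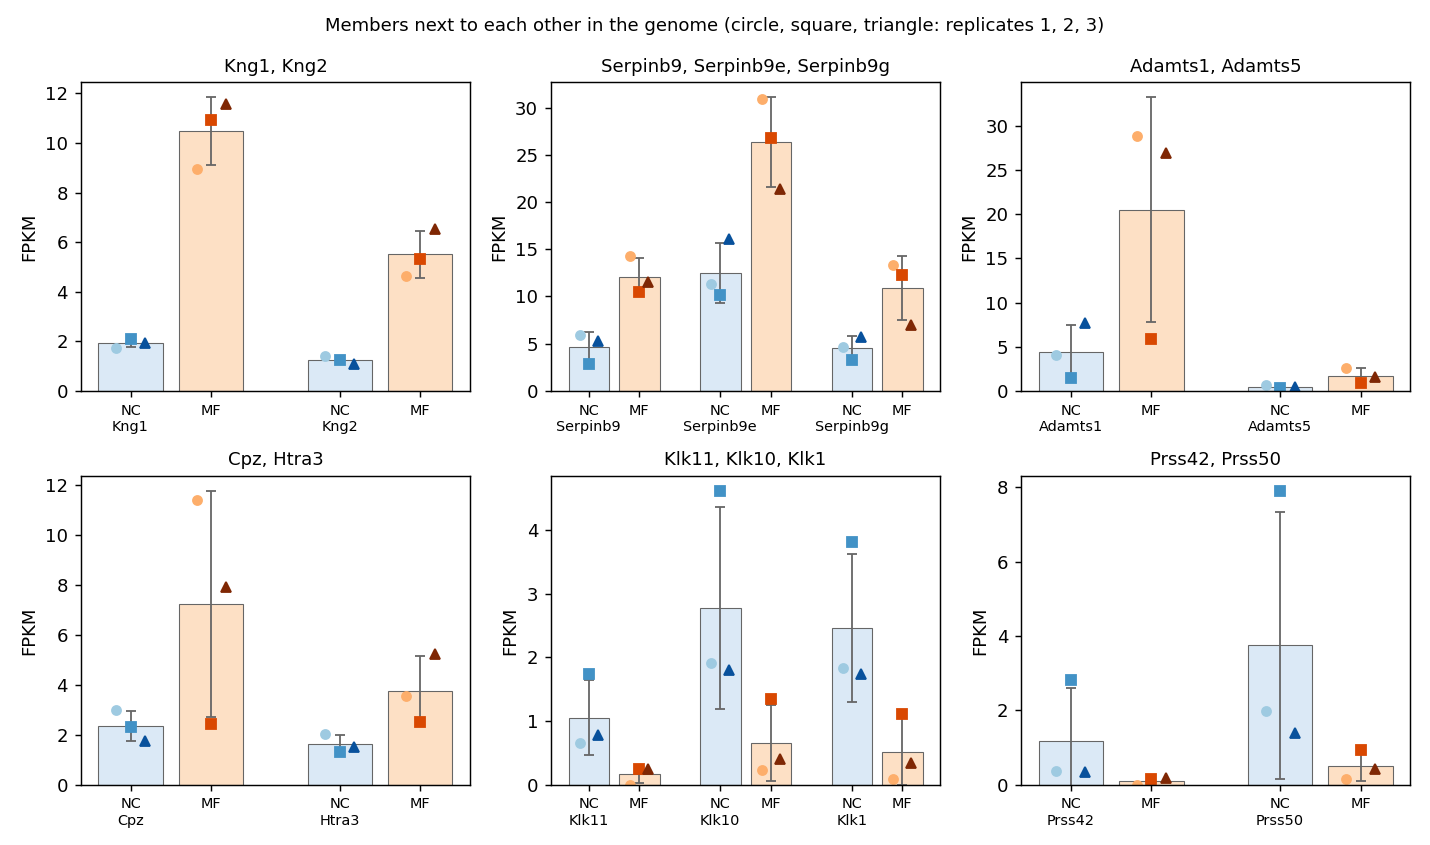
FPKM of members that lie close together in the genome, with bars for the mean of 3 libraries, error bars for the SD and symbols for each library. Kng1 and Kng2 showed the clearest separation, whereas in Klk11, Klk10, Klk1, Prss42 and Prss50 the high NC bars were pulled up by NC2 (blue squares).

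Several members were neighbours. Among members on the same chromosome 8 adjacent pairs lay within 500 kb of each other, and both genes of every pair moved in the same direction. Since 88.7% of all members were higher in MF, most pairs of members share a direction at any distance. Klk10 and Serpinb9e each recur across pairs, so the pairs are not independent, and the agreement was not tested. The closest were Klk11 and Klk10, 1.77 kb apart. Kng2 and Kng1 followed at 28.4 kb, then Adamts1 and Adamts5 at 53.1 kb, and none of these 3 pairs had a coding gene between its genes. Prss42 and Prss50 were 54.2 kb apart with 4 coding genes between them, and Cpz and Htra3 126 kb apart with 2. Klk10 and Klk1 enclosed 20 coding genes over 440 kb. None of the coding genes lying wholly between the members of any pair was in the deposited tables, so they were not analysed here. Non-coding genes between them were not checked.

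The libraries of a group did not move as a unit. Against the NC mean, on the scale of log2(FPKM + 0.1), the median over all members was 1.75 in MF1, 0.84 in MF2 and 1.63 in MF3, and 0.23, -0.30 and 0.10 in NC1, NC2 and NC3. Over all named deposited genes, of which a smaller share were higher, the medians were 1.30, 0.70 and 1.31 in the MF libraries. Among higher genes alone, medians in MF1, MF2 and MF3 were 1.80, 0.87 and 1.73 for the members. For all named genes that were higher they were 1.75, 1.06 and 1.71. MF2 was the MF library nearest to NC in 41 of the 47 higher members, or 87.2%, against 78.8% of all 1274 named genes that were higher, and it lay inside the NC range in 7 of the 47, or 14.9%, against 7.14%. Groups did not overlap in 38 of the 45 tested members, where 92.5% of all tested genes had no overlap. By direction, 33 of the 45 were without overlap and higher, against 58.4% of all tested genes, and 5 without overlap and lower, against 34.2%. Over all 53 members, untested ones included, 45 had no overlap, against 93.0% of all named genes. The overlapping members were Adamts1, Cpz, Lox, Loxl1, Mmp2, Pcsk5 and Serpinf2, and Tmprss5 below the filter.

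The 6 higher members in which MF2 was not the lowest MF library were Kng1, Kng2, Serpinb9e, Serpinb9g, Serping1 and Loxl4. These genes were named after their values were seen. Among the families that were higher in MF, the kininogens alone had a higher median in MF2, 2.24, than in MF1, 2.00. The serine proteases had medians of -3.07, -0.998 and -2.28 in the MF libraries and 0.78 in NC2 against -0.49 and -0.39 in NC1 and NC3. For the lysyl oxidases the NC medians spread from -0.84 to 0.55, so NC2 and NC1 differed by more than 1 on the log2 scale.

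**Figure D4:**
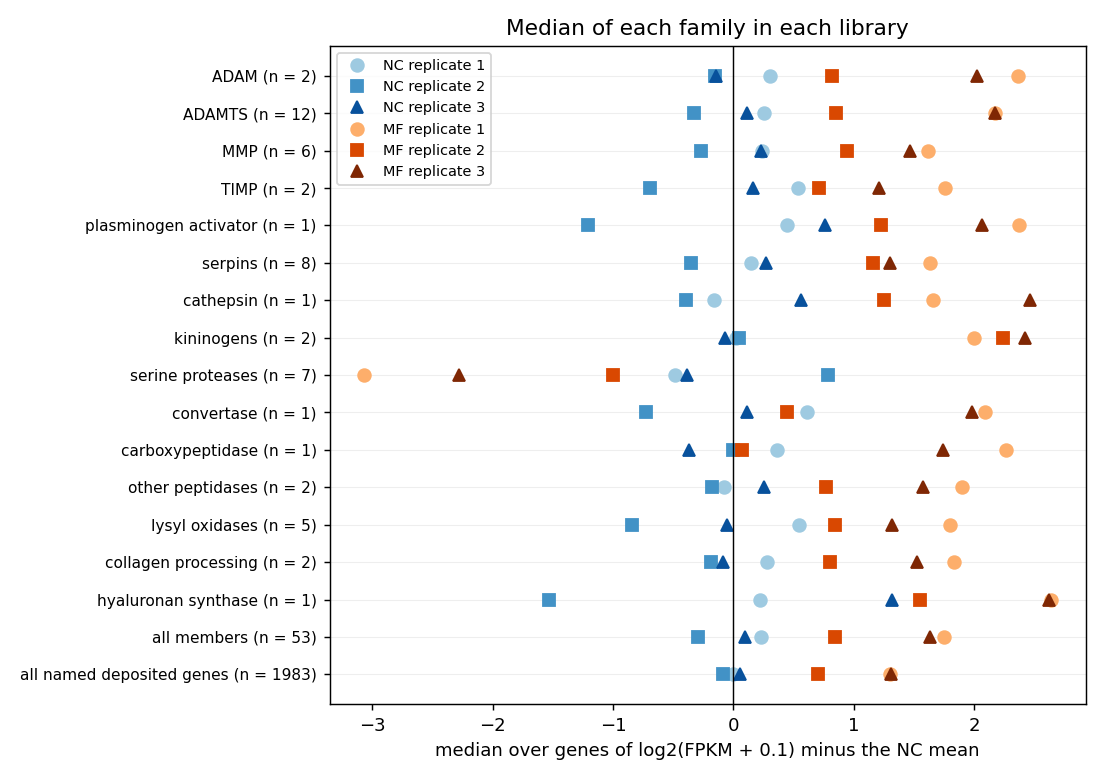
Median over the genes of each family of log2(FPKM + 0.1) minus the NC mean, on the horizontal axis, for each library, with all members and all named deposited genes in the lowest rows. MF2 (orange squares) was nearest to NC in most families, but not in the kininogens, and the serine proteases lay on the opposite side of 0.

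The calls depended on single libraries and on how many tests were adjusted for. Without MF2, 39 members passed as higher and 4 as lower by edgeR's quasi-likelihood test, beside 996 and 582 of all 1651 tested genes. Leaving out both replicate 2 libraries gave 40 and 4 members, beside 1027 and 582 of all genes, so nearly every gene passed there as well. Without MF3 no member passed, and 12 of all tested genes did. Kng1, Kng2, Adamts2, Mmp15, Adamts9, Serpina3n, Pcolce and Adam12 lost their call in that setting alone. Without NC1 17 members passed as higher and 2 as lower, beside 422 and 219 of all tested genes. Without NC2 there were 18 and 0, beside 589 and 146, without NC3 18 and 3, beside 629 and 383, and without MF1 10 and 0, beside 357 and 90.

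The authors' deposited adjusted p-values imply 19069 tested genes. When edgeR's p-values were adjusted over that number no member or other gene passed, although 43 members and 1613 of all tested genes had an unadjusted p under 0.05, and the smallest adjusted p among members was 0.128. DESeq2 with the library totals and the same adjustment called 13 members, where it called 36.2% of all tested genes, 29.0% higher and 7.21% lower. The 12 higher were Adam12, Adamts2, Adamts5, Adamts9, Adamtsl5, Ctso, Kng1, Kng2, Mmp15, Pcolce, Serpina3n and Serpinb9, and the lower was Prss50. The 13 make up 28.9% of the tested members.

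With the replicate number as a block and the same adjustment, edgeR called 17 members, or 37.8%, where it called 30.5% of all tested genes. All 17 were higher, against 22.8% of all tested genes, and 7.75% of those were called lower. Adam12, Adamts2, Adamts5, Ctso, Kng1, Kng2, Mmp15 and Serpinb9 are in both lists. TMM factors computed from the deposited genes shifted the median log2 fold change of all tested genes by -0.70 and median-of-ratios factors by -1.06. Under TMM the split of calls among all genes went from 1026 higher and 584 lower to 291 higher and 589 lower, and among the members from 38 and 5 to 7 and 5. The 7 were Adam12, Adamts2, Adamts9, Kng1, Kng2, Mmp15 and Serpina3n.

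Genes of the same pathways outside the naming rule were also mostly higher in MF. Since 97.5% of all tested genes passed, the counts of calls say nothing particular about these lists. Of 60 other proteases 9 were deposited. Of the 8 tested 6 rose and 2 fell, where 62.1% of all tested genes rose and 35.4% fell. Corin, the convertase of natriuretic peptides in the heart, rose 24.3-fold, from 0.142, 0 and 0.0992 FPKM in the NC libraries and 1.83, 1.54 and 2.56 FPKM in the MF libraries. Mep1b, a meprin subunit, fell 11.1-fold, with 4.61 FPKM in NC2 against 1.09 and 1.17 in NC1 and NC3. Capn6 and Masp1 rose 5.43-fold and 4.62-fold. Of 35 genes listed as other protease inhibitors 8 were deposited, 7 higher in MF and 1, below the filter, lower. The 5 tested all rose, where 62.1% of all tested genes rose. Rarres1 rose by 3.86-fold, Spock1 and Reck by 2.90-fold each and Tinagl1 by 2.47-fold. Reck, which restrains metalloproteinases at the cell surface, was at 2.71, 3.03 and 3.27 FPKM in the NC libraries and 10.3, 4.55 and 11.3 FPKM in the MF libraries.

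Further enzymes of collagen, proteoglycan and matrix modification gave 16 deposited of 48 listed, a list that includes Adamtsl1, Adamtsl2 and Adamtsl5. All 12 tested rose, where 62.1% of all tested genes rose. The heparan sulfate sulfotransferase Hs3st3a1 rose 8.64-fold and the prolyl hydroxylase P3h2 5.14-fold. Of 51 listed matrix proteins 28 were deposited. Of 27 tested 26 rose, again beside 62.1% of all tested genes, and Acan, the cartilage proteoglycan aggrecan, fell 6.13-fold. The median log2 fold change of the 27 was 2.19. The summed level of the list was 386, 212 and 250 FPKM in NC1, NC2 and NC3 and 1618, 363 and 1346 FPKM in MF1, MF2 and MF3. MF2 thus lay below NC1. Lum, Fmod and Col14a1 rose 89.1-fold, 55.7-fold and 39.1-fold. Col3a1, a chain of fibrillar collagen, rose 29.2-fold, from 6.20, 2.83 and 6.28 FPKM in the NC libraries and 222, 25.4 and 199 FPKM in the MF libraries.

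Promoter sequence was available for 38 of the 53 members. RefSeq starts were used, which lay within 100 bases of the deposited gene start in 31 of the 38 and farther off in 7, by up to 21468 bases in Tmprss5. The letters GGGCGG, those of a GC box, occurred on either strand within 250 bases before the start in 20 of them, or 52.6%, against 32.9% of 27025 promoters of genes of every kind in the same table. TATAAA occurred in 2 (Adamts1 and Adamtsl2) or 5.26%, against 13.0%. TGANTCA occurred in Prss42 alone, 2.63%, against 6.87%, and GGAATG, the letters of a TEAD site, in none, against 12.6%. None of these motifs contains another. The matches describe letters in a window and are no evidence of binding.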

How the data were processed

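RNA-seq was made from poly-A RNA of 6 libraries, per the labels' protocols, and the submitters' processing notes name HISAT2 2.0.5, featureCounts and the build mm10. The deposited tables give, per the file headers, the raw count, the authors' size-factor-normalised signal and the FPKM of each gene in each library, beside the p-value of the authors, their adjusted p-value and their log2 fold change. No source used here gives read length, strandedness or filters. Library totals were recovered from counts, FPKM and gene lengths, and the number of the authors' tests from their p-values. Of 2031 genes 48 carry no name (0.0134% to 0.0390% of counted reads) and stayed out of the tests.

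The counts were fitted with edgeR 4.0.16 (R 4.3.3; glmQLFit, glmQLFTest, two-sided) with the recovered totals as library sizes and group as the single factor, over 1651 named genes that averaged 0.5 FPKM or more. Standard errors were derived from the fold change and its F statistic. DESeq2 1.42.0, limma 3.58.1 on log2(FPKM + 1) and log2(FPKM + 0.1), other scalings and filters, a replicate block and libraries left out served as alternatives. The script was tested on simulated data for this contrast with 1651 genes, where it called 10 of 100 genes changed 2-fold, 92 of 100 changed 8-fold and 3 unchanged genes. With 3 libraries a group and a biological coefficient of variation of 0.506, most 2-fold changes were thus not called in the simulated data. There 200 of the 1651 genes were changed, whereas the deposited genes were all selected for this contrast. The simulation therefore sets no detection limit for the deposited genes, among which Mmp2 passed at 2.01-fold.

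Same-numbered NC and MF libraries deviated together (correlations of 0.38, 0.55 and 0.38 over 1651 genes), so a fit with the replicate number as a block was run as an alternative. The main fit used no pairing. Whether the numbers pair the libraries is not settled, because NC3 correlated more with MF1 (0.56) and no source used here says what a number marks. In each family, the members chosen by rule for description library by library are the up to 3 tested genes with the largest fold and the up to 2 with the highest level. Beyond that rule, Adamts5, Klk1, Klk10, Loxl3 and the untested Adamts18, Adamtsl2 and Tmprss5 were given library by library after their values were seen. Outside the members, up to 4 genes a list were named by fold. The members and lists were chosen with earlier results of these data known. Symbols, coordinates and shared 50-base windows were checked against GENCODE M21, in which all 53 members have the same coordinates, and 23 overlap another annotated gene, 7 of them a coding gene. Promoters came from RefSeq (GRCm38.p6) and were aligned with MAFFT 7.526. Protein sequences were not used here.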

Additional observations from a re-analysis of the deposited data

How the results depend on the processing

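By edgeR's quasi-likelihood test 38 members passed as higher and 5 as lower, 1610 genes passed in all, and the median log2 fold change of the tested members was 1.37. Adjusting over the 19069 recovered tests left 0 higher, 0 lower and 0 in all. TMM factors gave 7 higher, 880 in all and a median of 0.70. Median-of-ratios factors gave 2 higher, 3 lower, 665 in all and a median of 0.36, and DESeq2 with its own factors 5 higher, 862 in all and 0.36. Median-of-ratios factors turned Mmp2 to -0.10 both with edgeR and with DESeq2. DESeq2 with library totals, adjusted over the recovered tests, gave 12 higher, 1 lower and 598 in all, an alternative added after seeing the data. A filter at 2 FPKM left 1 lower and 980 in all, because fewer genes were tested.

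The replicate block alone changed the calls of Serpinh1 and Loxl3 and no other member's, giving 40 higher, 5 lower and 1620 in all. The block adjusted over the recovered tests, also added after seeing the data, gave 17 higher, 0 lower and 504 in all. With 1 library left out, members called ranged from 0 to 39 higher and from 0 to 4 lower, genes called from 12 to 1578, and medians from 1.14 to 1.58. Members without overlap ranged from 38 to 45, a count that leaving out a library cannot lower. The share over all tested genes in those settings was not counted. Outside the named settings, the causes of these changes were not tested. Both limma fits and the fit with no filter kept the counts within 1.5 times (40, 40 and 45 higher). Among the 45 tested members (32 at the 2 FPKM filter), Mmp2 alone changed direction in any setting run. An unchanged direction does not mean that a rise remained. With median-of-ratios factors and edgeR the log2 fold change was 0.046 in Adam22, 0.059 in Serpinh1 and 0.097 in Serpine2, whereas Adamts2 stayed at 2.46. The 8 members below the filter were not compared. Depth limits the members below 0.5 FPKM, and with 3 libraries a group most 2-fold changes were not called in the simulated data.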
